A study of Mus musculus with 2 samples.

Results

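The small nuclear RNAs of mouse erythroblasts, the nucleated bone marrow precursors of red blood cells, are described here together with 2 other abundant noncoding RNAs transcribed by RNA polymerase III, 7SK and 7SL. The members were chosen by their class and their measured counts: every gene of class snRNA in the GENCODE M21 annotation, with Rn7sk, Rn7s1 and Rn7s2, whose expected count averaged at least 100 over both libraries. Of 1383 snRNA genes in the tables, 38 passed, which gave 41 members among 43346 Ensembl genes. Another 122 snRNA genes had counts under that minimum, with 116 counts in all in replicate 1 and 1082 in replicate 2, and 1223 had none. Of the 41 members, 39 had at least 100 counts in each library, while Gm25541 and Gm23143 passed only through replicate 2. Because the counts chose the members, that a member was abundant is a description and not a result.

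Ribosomal RNA was depleted from total RNA and the rest was sequenced for 1 group, primary erythroblasts of male adult C57BL/6J mice aged 5 to 6 weeks, with 2 biological replicates that share a single donor record. The spread between them may therefore be partly technical. Neither library carried a treatment or an engineered allele. Each was made with a ScriptSeq kit from 100 ng of RNA, and the labels record size ranges, without a unit, of 200 to 764 (replicate 1) and 138 to 1000 (replicate 2). Expected counts summed to 37312624 in replicate 1 and 22464724 in replicate 2, so that a count of 0 allows up to 0.0804 and 0.134 counts per 1000000 counts. All 10 erythroid markers were measured, led by the alpha globin gene Hba-a2. The 8 neutrophil markers were measured too, with a median of 1075 and 971 TPM for every 1000000 TPM of protein-coding genes, and none of the 8 was 2-fold apart between the libraries. Of the 5 lymphoid markers, 2 reached 1 on that scale in both libraries. No conditions could be compared within a single group: the questions were how much of each small nuclear RNA was counted, from which gene copies, and how far the libraries matched. Each side of a ratio between the libraries is a single library, so ratios carry an interval for counting error and no p-value.

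Small nuclear RNAs are the catalytic and recognition core of the spliceosome, which removes introns from precursor mRNA. In the major spliceosome U1 pairs with the 5′ splice site, U2 with the branch point, and U4 holds U6 inactive in a particle with U5 until the spliceosome is activated, while U11, U12, U4atac and U6atac take the corresponding places for a rare class of introns. 7SK RNA holds the elongation factor P-TEFb in an inactive complex, and 7SL is the RNA scaffold of the signal recognition particle, which brings ribosomes to the endoplasmic reticulum. Erythroblasts splice large amounts of globin and other red cell mRNA before the nucleus is lost.

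Most members had placeholder symbols (31 of 41 begin with Gm), so each was assigned to a family by a short motif near its 5′ end. The motifs were ACTTACC for U1, TGTAGTA for U2, GCTTTGC for U4, CTTTTAC for U5, ACAGAGA for U6, GCTCTTT for U7, AAAAAGG for U11, TAAGGAA for U12, ACCATCC for U4atac and GTGTTGT for U6atac. Each was searched on the RNA's own strand within the first 10 to 60 bases. The U6 motif was found in 41.7% of all candidates, the U1 motif in 4.47%, and each of the others in 0.0722% to 2.45%. Among 1386 candidates, 767 carried the motif of 1 family, 616 carried none and 3 carried several, while each of the 38 snRNA members carried exactly 1. The leading members of 7 spliceosomal families are shown because their letters define the families. Each is the annotated transcript, 5′ to 3′ on its own strand in DNA letters, with GRCm38 coordinates. The first capitals mark the family motif: in U1 the stretch that pairs with the 5′ splice site, and in U2 the stretch that pairs with the branch point. The second capitals mark the uridine-rich Sm-type site, where the ring of Sm proteins sits (the U6atac RNA has none).
Gm22513 (U1, chr12:54696782-54696945, plus strand): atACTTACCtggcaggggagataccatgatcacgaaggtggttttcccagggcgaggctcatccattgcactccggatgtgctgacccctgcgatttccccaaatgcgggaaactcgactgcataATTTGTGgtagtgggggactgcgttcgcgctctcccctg
Gm23971 (U2, chr11:101645740-101645930, minus strand): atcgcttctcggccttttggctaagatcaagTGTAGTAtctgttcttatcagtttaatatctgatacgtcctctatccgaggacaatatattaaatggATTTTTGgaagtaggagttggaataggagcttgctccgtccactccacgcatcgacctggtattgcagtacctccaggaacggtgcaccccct
Gm24265 (U4, chr5:115489459-115489599, plus strand): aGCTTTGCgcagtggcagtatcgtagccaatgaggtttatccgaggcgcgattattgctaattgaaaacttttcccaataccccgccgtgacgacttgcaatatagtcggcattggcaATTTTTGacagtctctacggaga
Rnu11 (U11, chr4:132270080-132270213, minus strand): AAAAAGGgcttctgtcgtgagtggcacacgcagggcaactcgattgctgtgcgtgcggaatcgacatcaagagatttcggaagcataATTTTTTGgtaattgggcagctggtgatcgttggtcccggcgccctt
Rnu12 (U12, chr15:83149644-83149794, plus strand): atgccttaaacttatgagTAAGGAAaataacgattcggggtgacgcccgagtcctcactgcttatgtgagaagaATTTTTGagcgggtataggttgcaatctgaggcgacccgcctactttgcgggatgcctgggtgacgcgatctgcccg
Gm22710 (U4atac, chr1:118459141-118459265, minus strand): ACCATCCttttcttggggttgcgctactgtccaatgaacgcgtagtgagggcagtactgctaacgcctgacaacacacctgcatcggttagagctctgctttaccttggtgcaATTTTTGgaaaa
Gm25541 (U6atac, chr2:27539805-27539930, minus strand): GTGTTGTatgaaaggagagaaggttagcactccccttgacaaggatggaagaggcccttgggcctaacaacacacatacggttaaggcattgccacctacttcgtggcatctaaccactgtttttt

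7SK and 7SL are not read by the spliceosome families' motifs and were taken by symbol. These 2 RNAs, the longest of the members at 331 and 300 bases, stood apart from the rest between the libraries. The first 120 bases of 7SK are shown to identify it.
Rn7sk (chr9:78175514-78175633, minus strand): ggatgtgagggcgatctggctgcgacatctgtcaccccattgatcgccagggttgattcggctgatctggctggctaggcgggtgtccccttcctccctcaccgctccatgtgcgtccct

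The 41 members held 13.1% of all Ensembl gene counts in replicate 1 and 22.0% in replicate 2 (17.5% ± 6.33, SD, n = 2). The 3 genes for 7SK and 7SL accounted for 10.4% and 10.01%, so the libraries matched closely there. The 38 snRNA members held 2.69% and 12.02%. Of the 20 genes with most counts, 3 were members in replicate 1 (Rn7sk, Rn7s1 and Rn7s2) and 8 in replicate 2. On the log2 scale and after TMM scaling, the members had a median ratio of replicate 2 over replicate 1 of 1.98, beside -0.03 for the 8203 Ensembl genes whose counts averaged 100 or more. At least 2-fold higher in replicate 2 were 37 of 41 members, against a background of 4.69% of those 8203 genes (385). Among the 39 members with 100 counts in each library the number was 35. No member was 2-fold lower in replicate 2, against 5.80% of all genes (476). The exceptions to the higher level in replicate 2 were the 7SK gene, the pair of 7SL genes and the U5 gene Rnu5g. Gm25541, the U6atac gene, had the largest ratio and Rnu5g the smallest.

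**Figure D1:**
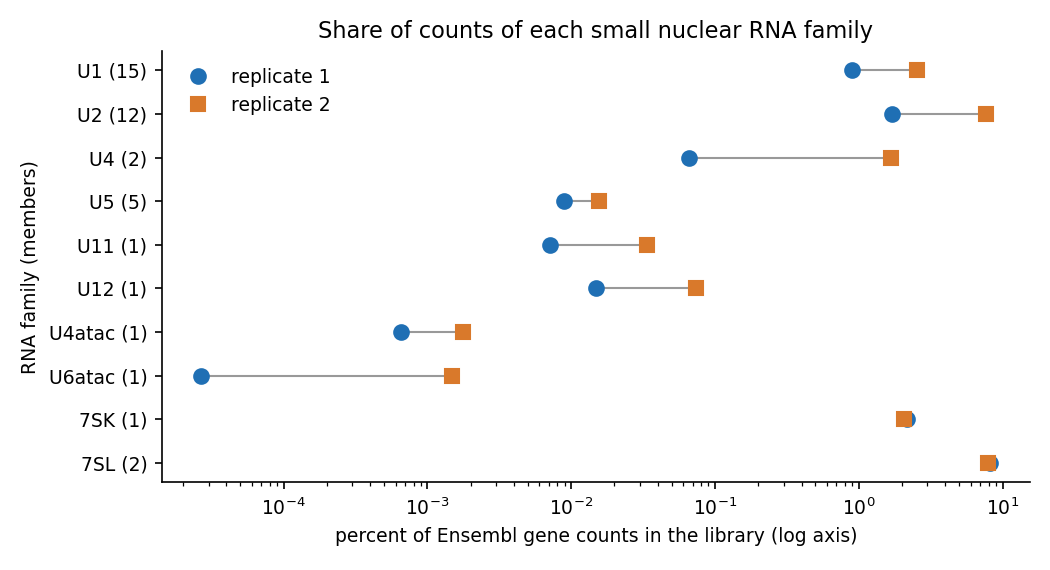
Percent of all Ensembl gene counts held by each RNA family (log axis) in replicate 1 (circles) and replicate 2 (squares), with the number of members in brackets and a grey line between the libraries. 7SK and 7SL sit at nearly the same share in both libraries, while U4 sits at 0.0664% and 1.67% and U6atac at 10 and 332 counts.

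U1 recognises the 5′ splice site through the motif in capitals near its 5′ end. Its 15 members had 332963 counts in replicate 1 and 574470 in replicate 2, which is 0.892% and 2.56% of each library. The log2 ratio of the sum was 1.67 (95% interval 1.66 to 1.67, counting error only). The leading copy, Gm22513, had 71507 and 92369.9 counts and a ratio of 1.25 (1.23 to 1.26). It differs from the next copies by 1 base, given from the leading copy to the others as C60T (counted from the 5′ end). Gm22068, Gm22317, Gm22634, Gm23804, Gm25679, Gm26444 and Rnu1a1 share that other base and are identical in sequence, so the split among them is an estimate. Their sum was 226535 and 403530 counts, with a ratio of 1.71 (1.70 to 1.72). The sum is in part an estimate too, because the posterior means deposited for the same 7 genes add up to 215715 and 358526, a ratio of 1.60. Gm22513 held 21.5% of U1 counts in replicate 1 and 16.1% in replicate 2. The 7 identical copies held 68.0% and 70.2%, or 64.8% and 62.4% by posterior means. Gm24305, with the additional substitution A26G, held 2.69% and 2.75%.

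Of the 15 U1 members, 4 were 165 bases long and 11 were 164 bases long. The longer genes were Rnu1b1 and Rnu1b2, named for the mouse U1b form, with Gm22614 and Gm25890. The 4 longer genes held 6.90% of U1 counts in replicate 1 (exact interval 6.81% to 6.99%) and 7.15% in replicate 2 (7.08% to 7.22%). Their share was thus nearly the same in both libraries, although the U1 total differed 3.17-fold after scaling. The longer genes form 2 sequences that differ by C33T, shown here in capitals in bases 24 to 42 because it is the only letter that tells them apart.
Gm22614 (chr3:96488752-96488770, plus strand): ccatgatcaCgaaggtggt
Rnu1b1 (chr3:96360076-96360094, minus strand): ccatgatcaTgaaggtggt

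The pair Gm22614 and Gm25890, with C, had 19771 and 35450 counts, and the pair Rnu1b1 and Rnu1b2, with T, had 3201.5 and 5616. The first sequence was the more abundant one in both libraries. The last 2 U1 members, Gm26244 and Gm24924, each have 2 substitutions against Gm22513 and were estimated at 1656 and 1323 counts in replicate 1 and at 14925 and 6780 in replicate 2. Their counts carry posterior standard deviations larger than themselves, from 5073 to 27367.

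U2 pairs with the branch point of the intron. With 633108 counts in replicate 1 and 1722245 in replicate 2, its 12 members were the most counted spliceosomal family in both libraries, at 1.70% and 7.67% of all counts. The log2 ratio of the sum was 2.32 (2.32 to 2.33). Gm23849, Gm23971, Gm24950 and Rnu2-10, which are identical, held 81.8% and 77.4% of it. Base 109 divided the U2 genes into 3 forms. The form with G (Gm23849, Gm23971, Gm24950, Gm25813, Gm26316 and Rnu2-10) held 82.2% of U2 counts in replicate 1 and 78.0% in replicate 2. The form with C (Gm23444, Gm23472, Gm24497, Gm25360 and Gm25939) held 17.5% and 21.5%, and the form with A was Gm22973 alone with 0.288% and 0.510%. Bases 100 to 118 of the 2 main forms are shown because base 109, in capitals, is the only difference between these 2 genes (G109C). It lies a few bases past the Sm-type site.
Gm23971 (chr11:101645813-101645831, minus strand): tttttggaaGtaggagttg
Gm23444 (chr11:83271597-83271615, plus strand): tttttggaaCtaggagttg

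The order of the 3 forms was the same in both libraries, but their ratios differed. The sum of the G form had a log2 ratio of 2.25 (2.24 to 2.25), that of the C form 2.61 (2.60 to 2.62) and Gm22973 one of 3.15 (3.08 to 3.22). In 2 genes of the C form the posterior standard deviation was small, at most 14.5 counts. Gm25939 had 27007 and 103431 counts and a ratio of 2.82 (2.80 to 2.83). Gm25360 had 18685 and 32176 counts and a ratio of 1.66 (1.64 to 1.69), the lowest of the U2 members. Both genes lie in the same cluster on chromosome 1. Gm26316, with 1994 and 9314 counts, and Gm25813, with 352 and 1143, had ratios of 3.10 and 2.58.

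U4 pairs with U6 and keeps it inactive until the spliceosome is activated. It showed the largest difference between the libraries among the major spliceosomal families, with 24783 counts in replicate 1 and 374452 in replicate 2. After scaling this is 27.8-fold, a log2 ratio of 4.80 (4.78 to 4.81). Both U4 members lie side by side on chromosome 5, on the same strand, and differ by 2 bases given as G88A and C99A. The differences stand in capitals in bases 79 to 108 of the 2 genes.
Gm24265 (chr5:115489537-115489566, plus strand): taccccgccGtgacgacttgCaatatagtc
Gm24407 (chr5:115490332-115490361, plus strand): taccccgccAtgacgacttgAaatatagtc

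Gm24265 had 11046.5 counts in replicate 1 and 235057 in replicate 2, and Gm24407 had 13736.5 and 139395. The log2 ratio was 5.29 (5.26 to 5.32) for Gm24265 and 4.22 (4.20 to 4.25) for Gm24407. Gm24407 was the more abundant copy in replicate 1 and Gm24265 in replicate 2. The share of Gm24265 in U4 counts was 44.6% (exact interval 44.0% to 45.2%) and 62.8% (62.6% to 62.9%). The posterior standard deviation of either count, the authors' measure of how uncertain the split between copies is, was 213 in replicate 1 and 715 in replicate 2, far smaller than this shift. By deposited TPM, Gm24265 and Gm24407 were the 2 highest genes of all in replicate 2 and ranked 19 and 15 in replicate 1.

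U5 contacts the exons on both sides of the intron. It was much less counted than U1, U2 or, in replicate 2, U4. Its 5 members had 3312 counts in replicate 1 and 3510 in replicate 2, a log2 ratio of 0.96 (0.89 to 1.03) for the sum. The genes are identical up to base 70 and differ at 15 positions between bases 71 and 114.

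Gm25313 and Rnu5g differ at 3 positions and had 1182 estimated counts each in replicate 1, 2 equal estimates from shared reads. In replicate 2 they had 1529 and 590 counts. Their posterior standard deviations were 651 and 651 in replicate 1 and 217 and 217 in replicate 2, so the low ratio of Rnu5g (-0.12, -0.27 to 0.02) rests on that split. Gm24871 had 606 and 892 counts, Gm25099 had 253 and 371, and Gm23143 had 88.2 and 128. These 3 genes had ratios of 1.44, 1.43 and 1.42. Their order was the same in both libraries.

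U6, the catalytic partner of U4, had no member although it is the family with most annotated copies. The tables hold 575 genes with the U6 motif, of which 97 had a count, with sums of 40 counts in replicate 1 and 564 in replicate 2. Gm23627 had the highest mean count, with 3 and 59.7 counts. The commonest U6 length, 107 bases in 312 of the copies, is shorter than that of every member.

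In replicate 1 the deposited effective length, the number of start positions a fragment can take on an RNA, was 0 for 569 of the 575 U6 copies, and 17 copies that had counts were listed at a TPM of 0. In replicate 2 it was 0 for 22 copies. No gene of 112 bases or less had an effective length above 0 in replicate 1, and none of 91 bases or less in replicate 2. U7, which directs the 3′ end processing of histone mRNA, had 33 annotated copies with a commonest length of 62 bases and no count in either library. The commonest U6 and U7 lengths are thus shorter than every member, and the level of these RNAs in the cells cannot be read from their counts.

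The minor spliceosome RNAs were all counted, each from a single member gene. Rnu12 (U12) had 5573 and 16506 counts and a log2 ratio of 2.44 (2.40 to 2.49). Rnu11 (U11) had 2673 and 7617 counts and a ratio of 2.39 (2.33 to 2.45). The U2 sum had 2.32. Gm22710 (U4atac) had 246 and 397 counts and a ratio of 1.57 (1.34 to 1.80). Gm25541 (U6atac) had 10 and 332 counts and a ratio of 5.93 (5.03 to 7.01), and it passed the count minimum only through replicate 2. Divided by annotated length, the minor RNAs summed to 1.06% of the major ones (U1, U2, U4 and U5) in replicate 1 and to 1.13% in replicate 2. U12 was 1.11% and 1.21% of U2 on that scale, and U11 was 0.983% and 1.62% of U1. By deposited TPM the minor RNAs were 2.65% of the major ones in replicate 1 and 1.80% in replicate 2, so the direction of that difference depended on the scale.

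By scaled counts, 7SK and 7SL had the ratios nearest to 0, followed by Rnu5g. Rn7sk had 805141 counts in replicate 1 and 466900.48 in replicate 2, or 2.16% and 2.08% of each library. Its log2 ratio was 0.09 (0.09 to 0.10). Rn7s1 had 1534522 and 891023 counts and Rn7s2 had 1534709 and 890843, also with ratios of 0.09. The 2 genes have identical sequences, and their equal split is the program's estimate. Their sum, 8.23% and 7.93% of all counts, was the highest of any family. With library size as the only scaling all 3 ratios change sign, to -0.05. By deposited TPM, 7SK was 1.81 times lower in replicate 2 and 7SL 1.90 times lower.

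Counts per annotated length set the spliceosomal RNAs side by side within a library, but do not give their proportions in the cells. The deposited effective length was 1.09% of the annotated length for U5 and 13.9% for U2 in replicate 1, so shorter RNAs had fewer start positions per base. Per base, U2 was 1.63 times U1 in replicate 1 and 2.58 times in replicate 2. U4 was 0.0866 and 0.758 of U1, and U5 was 0.0141 and 0.00864 of it. U2 held 59.1% and 58.6% of the spliceosomal length-scaled counts, nearly the same share, whereas U1 held 36.2% and 22.8% and U4 held 3.13% and 17.3%. The order of the major families, U2, U1, U4 and U5, was the same in both libraries. By deposited TPM the order changed: U1, U2, U4 and U5 in replicate 1, and U2, U4, U1 and U5 in replicate 2.

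Length ran alongside the ratios, though not as a simple order. The 3 members of 300 bases or more had ratios of 0.09, and the 38 members of 116 to 191 bases had ratios of -0.12 to 5.93. Within the short members the families did not follow their lengths: the sums were 0.96 at 116 bases (U5), 1.57 at 125 (U4atac), 5.93 at 126 (U6atac), 2.39 at 134 (U11), 4.80 at 141 (U4), 2.44 at 151 (U12), 1.67 at 164 and 165 (U1) and 2.32 at 191 (U2). Other genes of these lengths, taken where their counts averaged 100 or more, were higher in replicate 2 as well. A gene can pass that minimum through replicate 2 alone, so the percents of short genes depend in part on the minimum. Of 62 other genes of 121 to 160 bases, 57 of them small nucleolar RNA genes, 52 (83.9%) were at least 2-fold higher, with a median of 2.71. All 6 members in that range were. Of 161 to 200 bases, the range of 27 members, there were 8 other genes, of which 5 (62.5%) were at least 2-fold higher, with a median of 1.17. All 27 members there were at least 2-fold higher, with a median of 1.99. Among other genes of 201 to 350 bases the number was 14 of 37 (37.8%), and among those over 1000 bases 191 of 7256 (2.63%). The recorded size range also differed between the libraries. Its part in these ratios was not tested and cannot be told apart from the biological replicate.

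**Figure D2:**
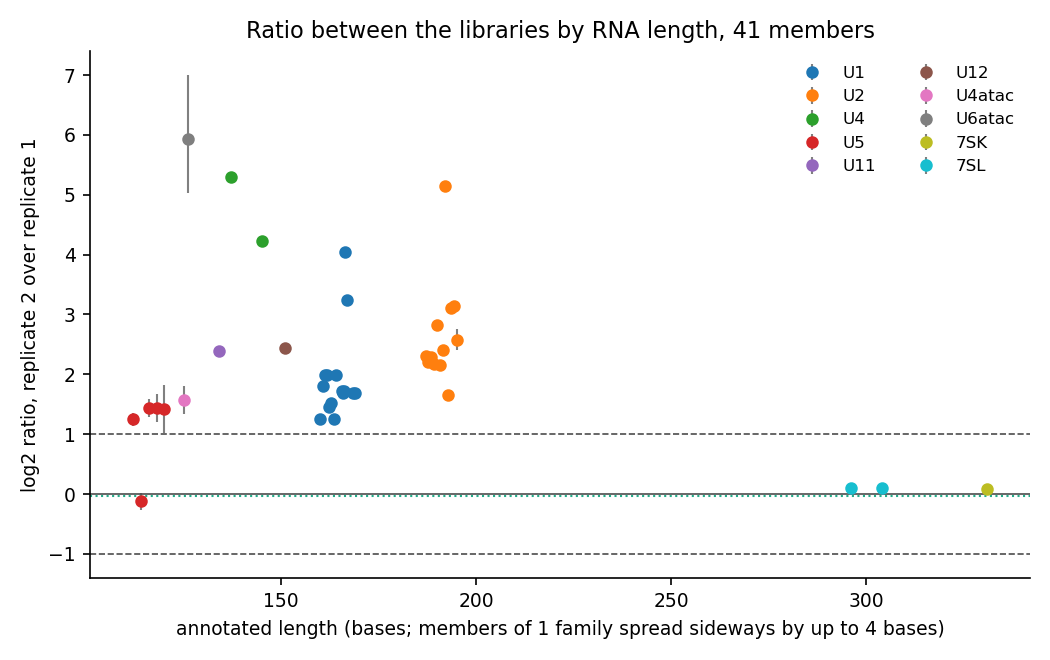
Log2 ratio of replicate 2 over replicate 1 for each of the 41 members against its annotated length in bases, coloured by family, with bars for the 95% counting interval (many are smaller than the point). Dashed lines mark a 2-fold difference and the dotted green line the median of all genes (-0.03). The 300 and 331 base RNAs lie slightly above that line, at 0.09, and all others except Rnu5g lie above 1.

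Deposited TPM gave a different picture of the same members, because it divides by effective length and is then a share of everything listed. A U5 gene of 116 bases had an effective length of 1.27 bases in replicate 1 and 6.66 in replicate 2. For U4 these were 5.28 and 18.0, for the 164-base U1 12.8 and 32.3, for U2 26.6 and 52.4, for 7SL 114 and 151 and for 7SK 143 and 181. The same count per annotated base was therefore worth 25.2 TPM for U5 in replicate 1 but 0.639 TPM for 7SK. In replicate 2 the corresponding values were 3.48 and 0.366. By TPM, 21 members were higher in replicate 2 and 20 lower, where by counts 40 were higher. U5 summed to 19286.5 TPM in replicate 1 and 4689 in replicate 2, which is 4.11 times lower, although its scaled counts were 1.95 times higher. U4 summed to 34746 and 184858 TPM, still 5.32 times higher in replicate 2. U1 was at 192292 and 158193 TPM and U2 at 176202 and 292349. The members together held 67.5% and 78.0% of all deposited TPM.

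**Figure D3:**
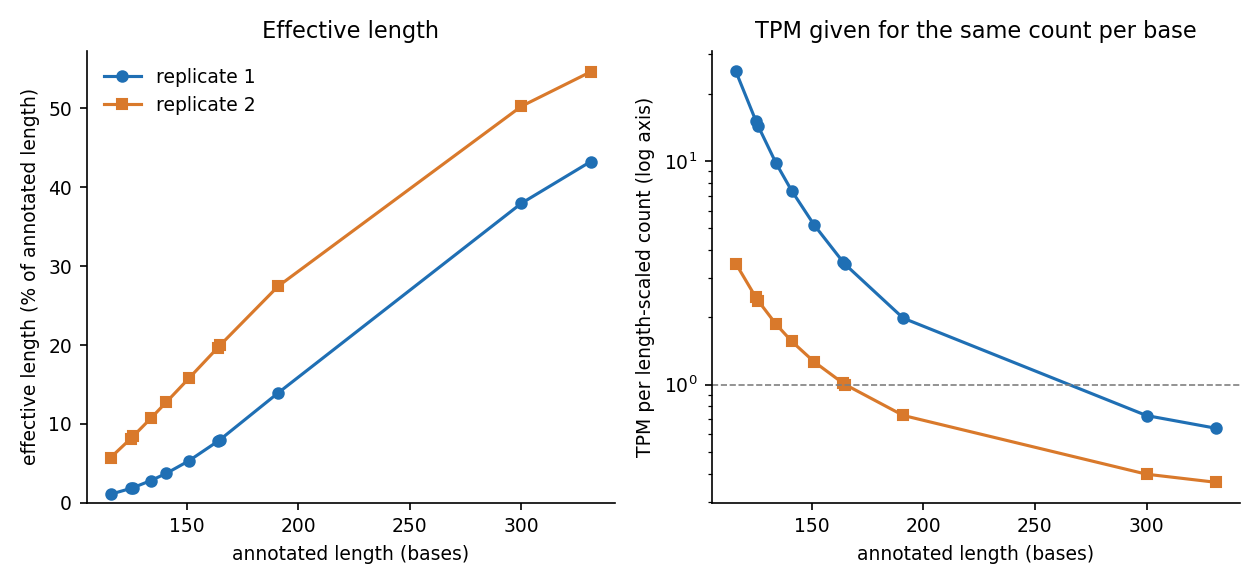
Left, deposited effective length as a percent of the annotated length for each length found among the members (116 to 331 bases), in replicate 1 (circles) and replicate 2 (squares). Right, TPM divided by length-scaled count (counts per 1000 annotated bases per 1000000 counts, log axis): it falls from 25.2 at 116 bases to 0.639 at 331 bases in replicate 1, and the curve of replicate 2 lies below it throughout.

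The counts of single copies were often an estimate. For 25 members the posterior standard deviation was over 3 times what counting alone gives (the root of the count) in a library: 13 of the 15 U1 members, 8 of the 12 U2 members, Gm25313 and Rnu5g of U5, and both 7SL genes. For the 7 identical U1 copies the expected counts lay between 26572 and 37003 in replicate 1 with standard deviations of 11955 to 27503. Expected counts and posterior means, 2 estimates deposited for the same reads, were at least 1.5-fold apart for 6 members in replicate 1 and 4 in replicate 2. Gm24497 had 3777 expected counts in replicate 1 but a posterior mean of 13935 ± 13052 (posterior SD), so its log2 ratio was 5.15 by the first and 3.14 by the second. Gm26244 had 1656 against 7570 in replicate 1 and 14925 against 36445 in replicate 2. The other members so far apart were Gm22317, Gm24924, Gm24950 and Gm25679. Family sums hardly moved: U1 had 332963 expected counts and a posterior mean of 332943 in replicate 1. The 15 snRNA members within that limit in both libraries had a median log2 ratio of 2.39, and all 15 were at least 2-fold higher in replicate 2. The 23 past it had a median of 1.98, with 22 of 23 at least 2-fold higher.

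**Figure D4:**
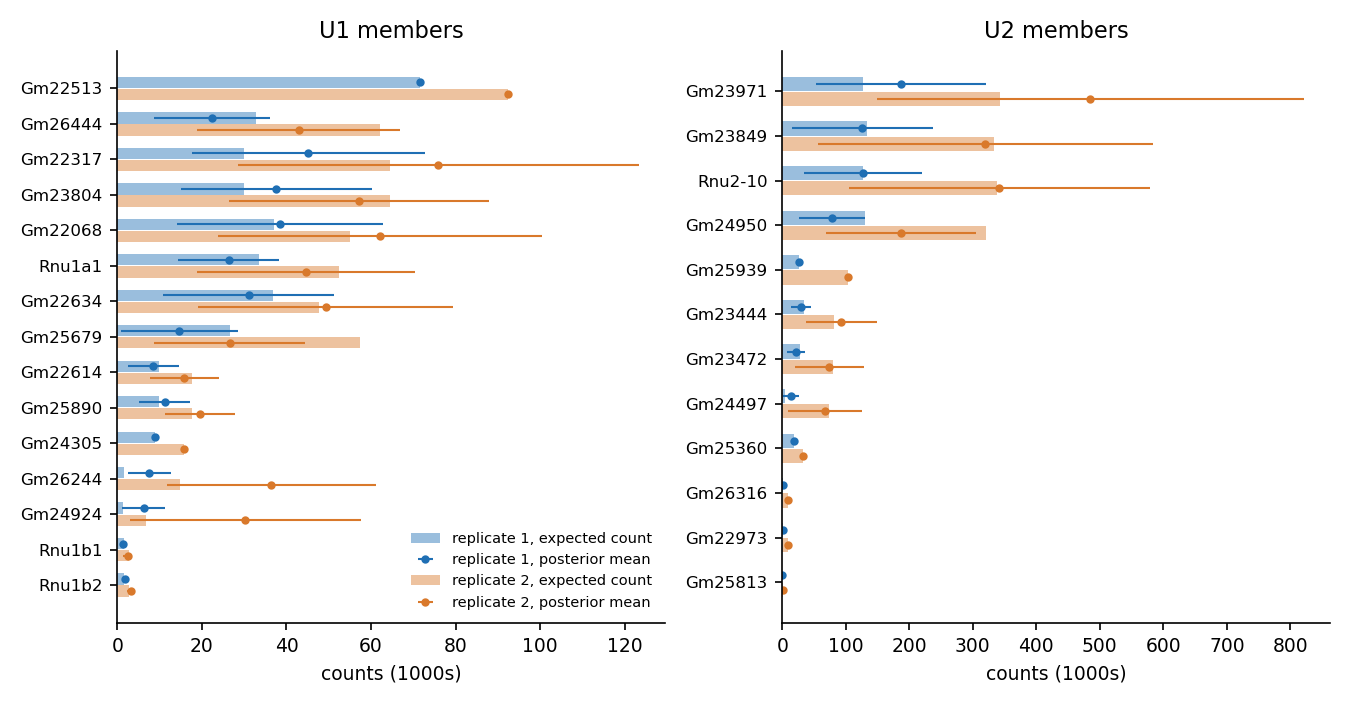
Expected counts (bars) and posterior means with the posterior standard deviation (points and lines, cut at 0) of each U1 gene (left) and U2 gene (right), in units of 1000 counts, for replicate 1 (blue) and replicate 2 (orange). Gm22513, Gm24305, Gm25939 and Gm25360 have lines too short to see, while the identical copies of U1 and U2 have lines that overlap one another.

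The members came from 21 loci when genes less than 200 kb apart were joined, and 8 of these loci held 28 of the members. The largest was a U1 cluster of 7 genes within 41.8 kb on chromosome 12 (54696782 to 54738622), with 236383 counts in replicate 1 and 404210 in replicate 2. A U2 cluster of 5 genes within 53.6 kb on chromosome 11 (101604850 to 101658428) had 519855 and 1342303 counts. A second U2 cluster, of 4 genes on chromosome 1 (72226240 to 72255198), had 77117 and 288066, and the 4 longer U1 genes lay within 129 kb on chromosome 3. Several members lie inside other annotated genes. Rnu1a1 and Gm22068 are in an intron of Tex14, Gm23849 in an intron of Rdm1, and Gm23472, Gm24497 and Gm25939 in introns of the long noncoding RNA gene D230017M19Rik, all on the same strand. Gm25313 and Rnu5g lie opposite an intron of Parp16, Gm22710 opposite one of Clasp1, and Rnu11 opposite an exon of Gm28872. The sequence of Gm24871 is also contained in an exon of B930036N10Rik, which had 389 and 332 counts of its own. Reads of these 2 genes cannot be told apart by sequence over the shared stretch. The same holds for Gm22710, the U4atac gene, whose sequence is contained in an exon of 2900060B14Rik on the same strand. The counts of 2900060B14Rik were not analysed here. The posterior standard deviations were small all the same, at most 1.5 counts for Gm24871 and 0 for Gm22710, so neither gene was called shared. Whether counting used the strand is not given in the sources used here.

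Members resembled their family's leading gene more closely than the copies under the count minimum did. Over the families with several genes, the other 30 members were 90.5% to 100% identical to the leading member, with a median of 98.9%, and 27 of 30 reached 95%. The 118 copies under the minimum, U6 not included, were 40.5% to 97.0% identical with a median of 71.7%, and 10 reached 95%. A copy nearly identical to the leading gene can be given part of its reads, so likeness could itself help a copy pass the minimum. The contrast is therefore a description and not a result. An Sm-type site, searched as ATTTTTG, ATTTTTTG or ATTTGTG on the RNA's own strand, was found in 37 of 41 members and in 205 of the other 1345 candidates, and in 17.5% of all candidates. Those 1345 include 575 genes with the U6 motif, 33 with the U7 motif and 616 with no family motif. The 2 sets thus differ in their families, and the difference cannot be assigned to the counted copies. None of the 3 motifs contains another. All 15 U1 members had ATTTGTG, all 12 U2 members and both U4 members had ATTTTTG, and all 5 U5 members had ATTTTTTG. The members without one were the U6atac, 7SK and 7SL genes. A match describes the letters and does not show that a protein was bound.

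The members at the edge of the count minimum were few. Just inside it were Gm23143 (U5, mean of 108 counts), Gm25541 (U6atac, 171) and Gm25099 (U5, 312). Just outside were Gm23238 with a mean of 93.6 counts, Gm24830 with 82.2 and Gm22042 with 41.5.

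The protein partners of these RNAs were measured as mRNA in the same libraries, from 13 lists of 126 gene symbols, of which 123 were found. Levels are given as coding-scaled TPM, in which nuclear protein-coding genes add up to 1000000 in each library, which removes the small RNAs from the scale. It still divides by effective length, which differed between the libraries for some genes (1498 and 646 bases for Lsm6). Levels and ratios of scaled counts can therefore differ. On the coding-scaled TPM 116 genes reached 1 in both libraries. The highest and the lowest gene of a list are those by the mean of both libraries, and in several lists another gene led in a single library. The mRNAs were nearer to equal between the libraries than the RNAs. Among the 102 partner genes averaging 100 counts or more the median log2 ratio was 0.15, with 5 genes at least 2-fold higher in replicate 2 and 3 at least 2-fold lower, beside backgrounds of 4.69% and 5.80%. List medians lay between -0.27 and 0.41.

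Sm proteins form the ring that binds the Sm-type site. Of 8 Sm genes 7 reached 1 in both libraries, with a list median of 37.8 in replicate 1 and 53.6 in replicate 2 on the coding-scaled TPM. Snrpe was the highest by the mean at 58.4 and 166, below Snrpd1 (74.7) in replicate 1, from 286 and 457 counts, a log2 ratio of 1.55 (1.34 to 1.77). Snrpf, at 26.7 and 67.6, had 272 and 372 counts and a ratio of 1.33 (1.10 to 1.56). Snrpn was the lowest, with 0 and 1 counts. In the LSm ring, which binds the end of U6, the median was 23.9 and 30.2. By the mean, Lsm2 was lowest at 17.8 and 11.6 and Lsm3 highest at 69.2 and 33.2, although Lsm7 was lowest in replicate 1 (3.64) and Lsm6 highest in replicate 2 (74.5). No LSm gene over the count minimum was 2-fold apart by scaled counts.

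Among genes for proteins of single particles, the U1 list had the highest medians (72.7 and 99.5). It ran from Snrpa, at 12.4 and 20.7, to the U1-associated factor Luc7l3, at 387 and 431. In the U2 list the branch point factor Sf3b1 was highest (207 and 235.5) and Sf3b5 lowest (3.20 and 2.90). Snrpb2, which binds the U2 RNA, stood at 8.53 and 31.9 from 198 and 437 counts, a ratio of 2.02 (1.77 to 2.27), the highest of all partner genes over the minimum. The U4/U6 and U5 list had medians of 24.2 and 28.6. The helicase gene Snrnp200, at 58.9 and 48.4, was its highest by the mean (Snu13 led replicate 2 at 52.6) and Txnl4a, at 6.13 and 7.11, its lowest, and none of its 14 genes was 2-fold apart. Of the minor spliceosome list Zrsr1 was highest by the mean (97.6 and 124, with Rnpc3 at 104 in replicate 1) and Zmat5 lowest (2.93 and 2.18), while Snrnp48 had 292 and 78 counts and a ratio of -1.03 (-1.41 to -0.66).

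Genes that make and assemble the particles were lower. The assembly list had medians of 8.17 and 9.79, with Strap highest (41.1 and 67.6) and Gemin4 lowest (0 and 0.725). Smn1, the core of the complex that loads Sm rings, had 159 and 43 counts and a ratio of -1.01 (-1.53 to -0.51). Among transcription factors of snRNA genes the SNAPc subunit gene Snapc5 was highest by the mean, at 10.6 and 33.2 (Pou2f1 led replicate 1 at 15.6), with 91 and 156 counts and a ratio of 1.66 (1.27 to 2.05), and Snapc2 lowest with 9 and 10 counts. Ice2, of the little elongation complex, had 302 and 79 counts and a ratio of -1.06 (-1.43 to -0.69). All 14 genes of Integrator, which cleaves the 3′ end of snRNA precursors, reached 1, from Ints5 (4.89 and 5.66) to Ints13 (136 and 128).

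For the remaining RNAs, the 7SK list had medians of 29.4 and 34.8, from Hexim2 (2.58 and 9.86) to the P-TEFb cyclin gene Ccnt2 (49.6 and 59.0). The signal recognition particle list had 30.7 and 46.8, from the receptor subunit gene Srprb (2.04 and 3.48) to Srp14 (64.5 and 74.8) by the mean. Srp54c led replicate 1 (83.4) and Srp54a replicate 2 (84.8). Both had fractional counts, 3404.24 and 1056.17 for Srp54c and 920.76 and 896.83 for Srp54a, with ratios of -0.81 and 0.84. How reads were split between these 2 genes was not examined. U7 partners ranged from Zfp473 (0.711 and 0.145) to the histone stem-loop factor Slbp (196 and 299). Of the genes that mature U6, Ssb, which binds newly made polymerase III RNAs, was highest (104 and 169). Tut1, the U6 uridylyltransferase, was lowest (2.40 and 5.95), with 94 and 120 counts and a ratio of 1.23 (0.83 to 1.64).

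**Figure D5:**
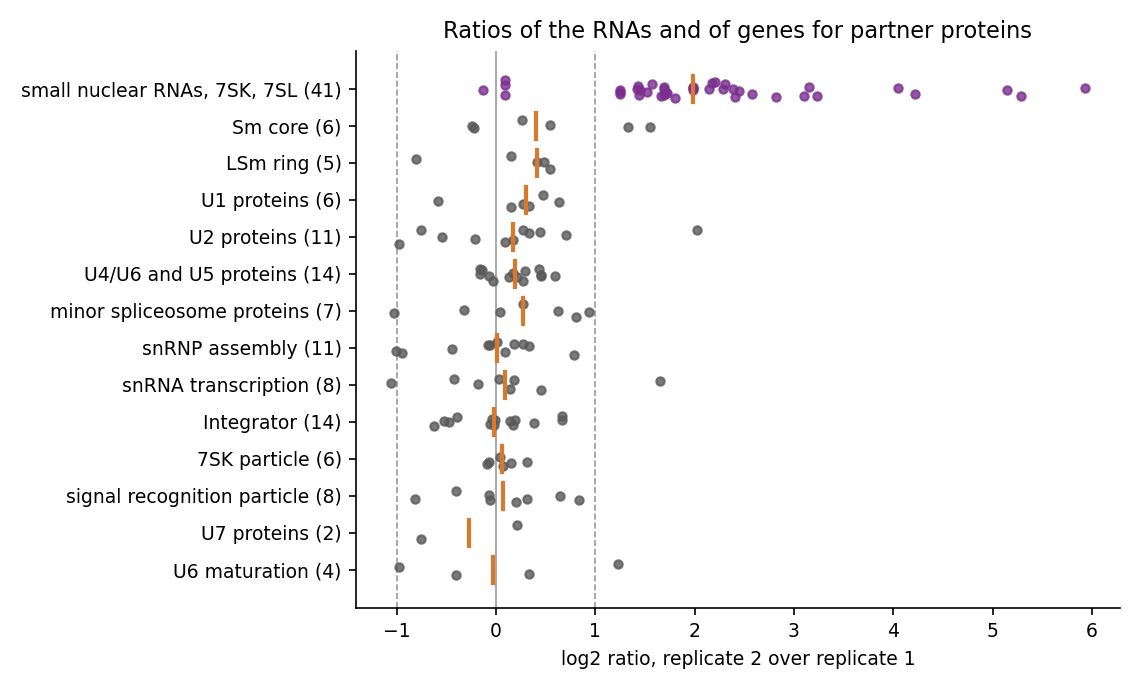
Log2 ratio of replicate 2 over replicate 1 for the 41 members (top, purple) and for the partner genes averaging 100 counts or more in each list (grey, number in brackets), with orange bars at the medians and dashed lines at a 2-fold difference. The members have a median of 1.98, while every partner list has its median between -0.27 (U7 proteins) and 0.41.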

How the data were processed

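Total RNA of mouse erythroblasts was read from 2 gene tables, 1 per library, with 69691 features each. The assembly was mm10 per the labels and the annotation GENCODE M4 per the deposited text records. Which aligner and quantification program were run, and whether strand was used, is not given in the sources used here. The authors' columns, per the file headers, include expected counts (estimated, not always whole), posterior mean counts with their standard deviation, annotated and effective lengths, and TPM, which the authors deposited as a share of everything listed. No values were pooled.

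Of 43346 Ensembl genes, 42462 (98.0%) matched GENCODE M21 by identifier without version. That release, on GRCm38, gave symbols, classes, coordinates and transcript sequences, and for all 41 members the M21 transcript length equalled the length in the tables. The transcript tables and promoter sequences were not used here.

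TMM factors (edgeR 4.0.16, R 4.3.3) over all Ensembl genes scaled the counts. A log2 ratio compares replicate 2 with replicate 1 and has an exact Clopper-Pearson 95% interval on rounded counts. Intervals cover counting error only, since reads without molecular identifiers are not independent molecules. The arithmetic was tested on simulated data. Length-scaled counts are counts per 1000 annotated bases per 1000000 Ensembl counts. Reads were called shared where the posterior standard deviation was more than 3-fold the root of the count. DESeq2 1.42.0 size factors, library size alone, protein-coding counts, TPM, posterior means, other count minimums, fold limits and member sets were alternatives. Counting used pandas 2.3.3, numpy 2.4.6 and scipy 1.17.1 under Python 3.11.15, and plotting matplotlib 3.10.9.

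The members, the gene lists and the tests were chosen with earlier results of these data known. Named with values are the leading member of each family, all members of the minor spliceosome, 7SK and 7SL families, the largest and smallest ratios, the 3 genes on either side of the count minimum and, of each protein list, the highest and the lowest by the mean of both libraries and any gene at least 2-fold apart over the count minimum. Other U1, U2, U4 and U5 members, the host genes, Gm23627 and partner genes that led or trailed a list in a single library were named after their values were seen. The symbols Srp54b, Srpra and Prpf24 were not found, and a gene listed under another symbol (such as Srpr) was read under that one.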

Additional observations from a re-analysis of the deposited data

How the results depend on the processing

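With DESeq2 size factors, library size alone or protein-coding counts for scaling, 37 of 41 members were at least 2-fold higher in replicate 2, as with TMM. At a 1.5-fold limit the number past it was 37 of 41 too. The number at least 2-fold higher was 36 of 41 by posterior means, 31 of 34 at a mean count of at least 1000 and 37 of 38 without 7SK and 7SL. It was 9 of 41 by deposited TPM, 18 of 41 at a 4-fold limit, 15 of 16 without members that share reads and 7 of 10 for family sums. The share of all genes was taken only with TMM scaling, a 2-fold limit and a mean count of at least 100. Numbers with other scalings, fold limits or count minimums, by posterior means, by TPM or for family sums thus have no background beside them. With no count minimum the number of genes at least 2-fold higher was 152 of 163, of which 96 had no count in replicate 1, so no median could be given. The median log2 ratio of 1.98 was 1.84 with library size alone, 0.036 by TPM, 1.72 by posterior means and 2.04 without members that share reads. The median of all genes was not taken by TPM or by posterior means, so 0.036 and 1.72 have no background beside them. Nuclear protein-coding genes summed to 112541 TPM in replicate 1 and 68948 in replicate 2. Library size alone lowered every ratio by 0.15, including the median of all genes, to -0.18. Deposited TPM turned the sign of 19 of the 40 members that were higher in replicate 2 by counts: 10 of U1, 4 of U5, Rnu11, Gm22710, Rn7sk, Rn7s1 and Rn7s2. Among them were Rnu11 (-0.15), Gm22710 (-1.20), Gm23143 (-1.59), Gm25099 (-1.57), Gm25313 (-1.75), Gm22513 (-0.70), Rn7sk (-0.86), Rn7s1 (-0.92) and Rn7s2 (-0.92). TPM divides by effective length and is also a share of everything listed, and the parts of these 2 steps in the turned signs were not separated. The share of counts held by the members (17.5%) was 32.3% relative to protein-coding counts, 72.7% by TPM, 55.2% per annotated base and 7.35% without 7SK and 7SL, and 13.1% to 22.0% with either library left out. No paired analysis was possible because the series has 1 group. The ratio of U6atac rests on 10 counts in replicate 1, although that library had the larger sum of counts. Most U6 and U7 copies had an effective length of 0 in replicate 1.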
